A study of Mus musculus with 28 samples.

Results

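C1q macrophages lacking resident markers were cells of the mouse jugular vein that held a high share of C1q transcripts and few transcripts of *Cd163*, *Lyve1*, *Folr2*, and *Timd4*, genes that mark macrophages settled in tissue. A barcode of the single-cell data was kept if it had 200 to 6000 genes and at most 10% mitochondrial UMIs (unique molecular identifiers, each of which tags a captured RNA molecule). Among kept barcodes, a member had at least 0.5% of its UMIs from *C1qa*, *C1qb*, and *C1qc* together and under 0.1% from the 4 resident genes. Members also had under 1.5% from *S100a8* and *S100a9*, which mark neutrophils, and under 1.5% from *Col1a1*, *Col1a2*, *Col3a1*, and *Dcn*, which mark fibroblasts. Of 26438 barcodes, 16893 were kept, and 1782 of these (10.5%) were members. The levels of these genes therefore chose the cells and are given only as a description.

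The data came from male and female C57BL/6 mice with 5/6 nephrectomy in which an arteriovenous fistula (AVF) was later created between the carotid artery and the jugular vein, and the native jugular vein of the other side (contralateral vein) served as the control. Single-cell RNA sequencing had 3 libraries, 1 from native contralateral veins and 1 each from early and late AVFs, and each was made from a pool of vessels of both sexes that had been digested with enzymes for 90 minutes. Bulk RNA sequencing had 25 libraries of ground vessels, from 7 contralateral veins and from 8 early, 5 mid, and 5 late AVFs, taken at nominal days 3, 10, and 21. By the methods, the early and late vessels of the single-cell libraries were taken some days later than those of bulk sequencing, so that the same time name covers different days.

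C1q is the recognition molecule of the classical complement pathway. It is assembled from A, B, and C chains, binds immune complexes and dying cells, and in most tissues is made by macrophages rather than by the liver. *Ms4a7* encodes a membrane protein of the MS4A family that is used as a macrophage marker. Macrophages of the vessel wall include long-lived perivascular cells and cells that arise from blood monocytes, and both can express C1q.

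The 3 chains are encoded next to each other. In GRCm38, *C1qb* lies at chr4:136880129-136886187, *C1qc* at chr4:136889804-136893065, and *C1qa* at chr4:136895917-136898803, all on the minus strand, and *Ms4a7* at chr19:11321039-11336146, also on the minus strand. The promoter windows of *C1qb* and *C1qc* are shown because these genes chose the cells. Each window runs from 250 bases before to 50 bases after the start of the gene in RefSeq (GRCm38.p6, minus strand, written 5′ to 3′), and *C1qb* covers chr4:136886151-136886450 and *C1qc* chr4:136892865-136893164. Capitals mark a match to GAGGAA or its reverse complement TTCCTC, letters bound by PU.1, the factor that specifies myeloid cells, or to TGCTGA or its reverse complement, the core of the sites of MAF factors.
C1qb: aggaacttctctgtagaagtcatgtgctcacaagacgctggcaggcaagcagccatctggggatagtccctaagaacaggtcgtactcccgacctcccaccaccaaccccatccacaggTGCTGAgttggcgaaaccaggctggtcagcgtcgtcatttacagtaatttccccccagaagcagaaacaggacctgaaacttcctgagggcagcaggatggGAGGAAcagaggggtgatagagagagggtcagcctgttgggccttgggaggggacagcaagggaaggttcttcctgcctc
C1qc: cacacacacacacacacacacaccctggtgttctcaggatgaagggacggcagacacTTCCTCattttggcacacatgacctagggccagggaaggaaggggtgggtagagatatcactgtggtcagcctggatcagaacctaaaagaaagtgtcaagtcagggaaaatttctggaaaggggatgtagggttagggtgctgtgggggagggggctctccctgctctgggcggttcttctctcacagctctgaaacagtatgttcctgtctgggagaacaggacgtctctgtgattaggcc
Counted from the first base of the window, the *C1qb* window held the PU.1 letters at base 221 and the MAF letters at base 120, and the *C1qc* window held the PU.1 letters at base 58. Of all 32851 promoter windows of the same length, 28.3% held the PU.1 letters and 19.5% the MAF letters on either strand, so such matches were common. The AP-1 letters TGANTCA, found in 7.81% of windows, were in neither. The motifs do not overlap in either window, and a match of letters is no evidence of binding.

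Members were scarce in contralateral veins and frequent in fistulas. They were 59 of 6319 kept barcodes in contralateral veins, or 0.934% (exact binomial 95% interval, 0.712 to 1.2%). They were 944 of 4753 in early AVFs, or 19.9% (18.7 to 21.0%), and 779 of 5821 in late AVFs, or 13.4% (12.5 to 14.3%). The share in early AVFs was 21.3 times that of contralateral veins (16.3 to 28.2) and the share in late AVFs 14.3 times (11.0 to 19.0), while late AVFs held 0.674 of the share of early AVFs (0.612 to 0.742). With 1 library per condition no test was possible, and all intervals of the single-cell data cover counting error only, not differences between vessels or digestions.

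C1q cells with resident markers went the other way at the resident threshold of 0.1%. Cells with at least 0.1% of UMIs from the resident genes and otherwise under the same rule numbered 286 in contralateral veins (4.53% of kept barcodes, 4.03 to 5.07%), 132 in early AVFs (2.78%, 2.33 to 3.28%), and 116 in late AVFs (1.99%, 1.65 to 2.39%). Of all C1q cells, members were therefore 17.1% in contralateral veins (13.3 to 21.5%), 87.7% in early AVFs (85.6 to 89.6%), and 87.0% in late AVFs (84.7 to 89.2%). The early and late intervals of this last share overlapped, and both lay above that of contralateral veins. The direction depended on the threshold. At 0.05%, cells with resident markers numbered 302, 270, and 230 of 6319, 4753, and 5821 kept barcodes. Counting any resident UMI, they numbered 312, 728, and 521, more in fistulas than in contralateral veins. Members were then 9.57%, 32.3%, and 41.8% of all C1q cells.

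**Figure D1:**
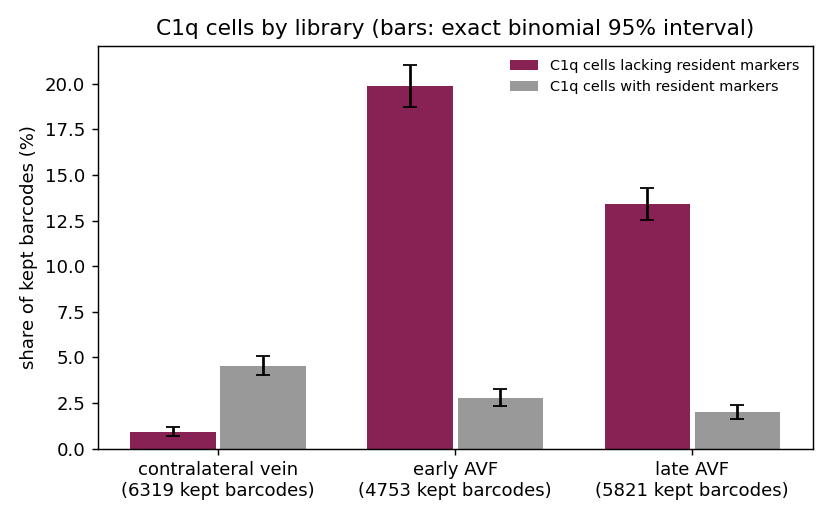
Share of kept barcodes (%, y axis) that were C1q cells lacking or with resident markers in each single-cell library (x axis), with exact binomial 95% intervals for counting error. Cells lacking resident markers were 0.934% in contralateral veins, 19.9% in early AVFs, and 13.4% in late AVFs, and cells with resident markers were 4.53%, 2.78%, and 1.99%.

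The libraries differed in depth, which bears on a rule made of shares. Members had a median of 4421 UMIs in contralateral veins, 14290 in early AVFs, and 14209 in late AVFs, and all kept barcodes 2751, 8951, and 15425. When barcodes with at least 2000 UMIs were thinned to 2000 before the rule was applied, members were 1.22%, 20.9%, and 13.8%. A member without any UMI of the 4 resident genes was found 33 times in contralateral veins, 348 times in early AVFs, and 374 times in late AVFs, or 0.522%, 7.32%, and 6.43% of kept barcodes. No barcode sequence was shared by members of different libraries, while 5 or 6 kept barcode sequences were shared by each pair of libraries. Scrublet predicted under 0.5% doublets in contralateral veins and early AVFs, which is too few to have worked there, and 2.25% in late AVFs. Of 944 early members 2 were predicted doublets, and of 779 late members 6.

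The thresholds cut through continuous distributions. The median C1q share of a member was 0.750% in contralateral veins, 0.933% in early AVFs, and 0.772% in late AVFs, with maxima of 1.99%, 3.07%, and 2.81%. Just inside the C1q threshold, from 0.5 to 0.6%, were 16, 125, and 144 members in the same order, and just outside it, from 0.4 to 0.5% with the other conditions met, were 25, 87, and 160 barcodes. Just inside the resident threshold, from 0.05 to 0.1%, were 16, 138, and 114 members, and from 0.1 to 0.15% were 37, 59, and 65 barcodes. A threshold of 1% C1q left 13 members in contralateral veins, 421 in early AVFs, and 186 in late AVFs. The neutrophil condition removed 6 barcodes, all in early AVFs, and the fibroblast condition 2, 12, and 8.

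Among early members, expression varied along the C1q share. From members with 0.5 to 0.6% C1q to those with at least 1.2%, *Apoe*, which encodes the lipid carrier apolipoprotein E, went from 16640 to 31043 CPM (the usual scaling of a gene's UMIs by the summed UMIs of the cells in question, here the members of 1 band) and *Ms4a7* from 757 to 1488 CPM. In the other direction, *Spp1*, which encodes osteopontin, went from 3041 to 1443 CPM, *Fn1* from 1001 to 287 CPM, and the interleukin gene *Il1b* from 1490 to 508 CPM. *Il1b* was at 1510 CPM in the next band, from 0.6 to 0.9%. Late members did not show the *Spp1* order, with 211, 539, 255, and 598 CPM in the 4 bands from the lowest to the highest C1q share. From the lowest to the highest band, the other named genes kept their direction in late members. *Apoe* went from 7482 to 20313 CPM, *Ms4a7* from 582 to 1067, *Fn1* from 519 to 245, and *Il1b* from 1072 to 585. Members with at least 0.5% of UMIs from *Arg1*, *Mmp12*, and *Spp1* numbered 0 in contralateral veins, which allows a share of up to 6.06%, 103 in early AVFs (10.9%, 8.99 to 13.1%), and 16 in late AVFs (2.05%, 1.18 to 3.31%). These values describe the members and were not tested.

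Members carried the pan-macrophage genes in all 3 libraries. Summed over members, *C1qa* was at 3292 CPM in contralateral veins, 3672 in early AVFs, and 3344 in late AVFs, *C1qb* at 2988, 4217, and 3394 CPM, and *C1qc* at 2073, 2271, and 2075 CPM. *Csf1r*, the receptor that macrophages need for survival, was at 754, 603, and 555 CPM, and *Adgre1*, which encodes F4/80, at 614, 563, and 506 CPM. For comparison, *C1qa* was at 18.3, 33.0, and 32.9 CPM in fibroblasts of the same libraries and at 22.6, 57.9, and 67.3 CPM in T cells, which do not make C1q. The C1q values follow from the rule, which also kept the T cells under 0.5% C1q, so of these genes only *Csf1r* and *Adgre1* bear on the label, and both were present in all 3 libraries.

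The 10 leading genes of members over all other kept barcodes of their library were *C1qb*, *C1qa*, *C1qc*, *Hpgds*, *Ccl12*, *Ms4a7*, *Fcrls*, *Apoe*, *Gdf15*, and *Cd72*, ordered by the smallest ratio in any library. *C1qb* was 12.8, 9.20, and 17.1 times as high in members in contralateral veins, early AVFs, and late AVFs, and *Ms4a7* 6.88, 7.34, and 17.4 times. The chemokine gene *Ccl12* was 30.7, 6.89, and 15.2 times as high, and *Apoe* 5.34, 5.98, and 6.73 times. Because the rule selected on C1q, these ratios describe the cells and are not findings.

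Markers of other cells were also summed over members. The 6 T cell genes, *Cd3d*, *Cd3e*, *Cd3g*, *Trac*, *Trbc2*, and *Lck*, summed to 3.49, 1.98, and 6.97 CPM, with 5, 1, and 0 of them at 0 in contralateral veins, early AVFs, and late AVFs. The 5 endothelial genes summed to 45.4, 14.1, and 20.9 CPM, the 4 B cell genes to 41.9, 11.6, and 12.8 CPM with *Ms4a1* at 0, 0.0706, and 0.0860 CPM, and the 5 dendritic cell genes to 41.9, 24.3, and 32.1 CPM, all of it from *Cd209a* in contralateral veins. Fibroblast genes summed to 1051, 910, and 889 CPM and neutrophil genes to 52.4, 273, and 71.8 CPM, both lists partly limited by the rule. Erythroid genes differed most, at 20567, 279, and 4.13 CPM. Haemoglobin took 2.05% of the summed UMIs of members in contralateral veins, 0.0278% in early AVFs, and 0.000413% in late AVFs, against 2.36%, 0.0340%, and 0.133% in T cells of the same libraries, and its part in the comparisons below was not tested.

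Between libraries, genes of the members were compared if they reached 100 CPM and 20 UMIs in the higher of both libraries, and a ratio of at least 2-fold was counted. Of 1725 such genes, 262 (15.2%) were at least 2-fold higher in early AVFs than in contralateral veins and 248 (14.4%) at least 2-fold lower. Of 1699 genes, 194 (11.4%) were higher and 188 (11.1%) lower in late AVFs than in contralateral veins. Of 1527 genes, 59 (3.86%) were higher and 25 (1.64%) lower in late than in early AVFs. The median ratio over all compared genes was 1.08, 1.04, and 0.956 in these 3 comparisons, and the contralateral side of the first pair of them rests on 59 cells and 286483 UMIs, against 14170569 and 11623305 UMIs in early and late AVFs.

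*Ms4a7*, although a marker of these cells in every library, was at 244 CPM in contralateral veins, 1107 in early AVFs, and 782 in late AVFs. The ratio was 4.53 for early AVFs against contralateral veins (95% interval, 3.58 to 5.82) and 3.20 for late AVFs (2.53 to 4.11). In C1q cells with resident markers *Ms4a7* was at 334, 869, and 464 CPM, the same order of libraries, so the order was not particular to members. With each cell thinned to 2000 UMIs, *Ms4a7* was detected in 37.2%, 77.5%, and 69.4% of members, against 0%, 0%, and 2.01% of T cells. Without thinning the shares of members were 55.9%, 93.2%, and 89.0%, and 16, 39, and 50 members were too shallow to be thinned. The 3 C1q genes, whose sum the rule bounded from below, differed by less, with ratios between 0.805 and 1.41 in the 3 comparisons.

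Genes for lipid handling and the lysosome were higher in fistula members. Of 19 listed genes, 17 passed the filter for early AVFs against contralateral veins, 10 of them were at least 2-fold higher and 0 lower, against 15.2% and 14.4% of all compared genes, and the median ratio was 2.30. For late AVFs against contralateral veins, 9 of 18 were higher and 0 lower, with a median of 2.00, and for late against early AVFs 0 were higher and 4 lower (*Trem2*, *Gpnmb*, *Spp1*, and *Fabp5*), with a median of 0.793. *Trem2*, a lipid-sensing receptor, was at 76.8, 610, and 278 CPM in contralateral veins, early AVFs, and late AVFs, and was detected after thinning in 11.6%, 61.2%, and 31.1% of members (22.0%, 88.7%, and 71.2% without thinning) and in 0%, 0%, and 1.01% of T cells. *Fabp5*, a fatty acid carrier, was at 31.4, 1886, and 488 CPM, a ratio of 60.0 for early AVFs (31.6 to 131) and 15.5 for late AVFs (8.18 to 34.0) over contralateral veins. *Apoe* was at 10028, 23058, and 12281 CPM and *Ctsb*, which encodes the protease cathepsin B, at 2995, 6042, and 4556 CPM. Both were highest in early AVFs. *Gpnmb*, a lysosomal membrane protein, was at 6.98, 461, and 212 CPM, but contralateral veins had only 2 UMIs, so the interval of the early ratio of 66.0 ran from 18.3 to 545. Summed over the 19 listed genes, members had 17467, 45986, and 27357 CPM. C1q cells with resident markers had 22202, 46378, and 28217 CPM, so the higher level in fistulas was not particular to members.

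**Figure D2:**
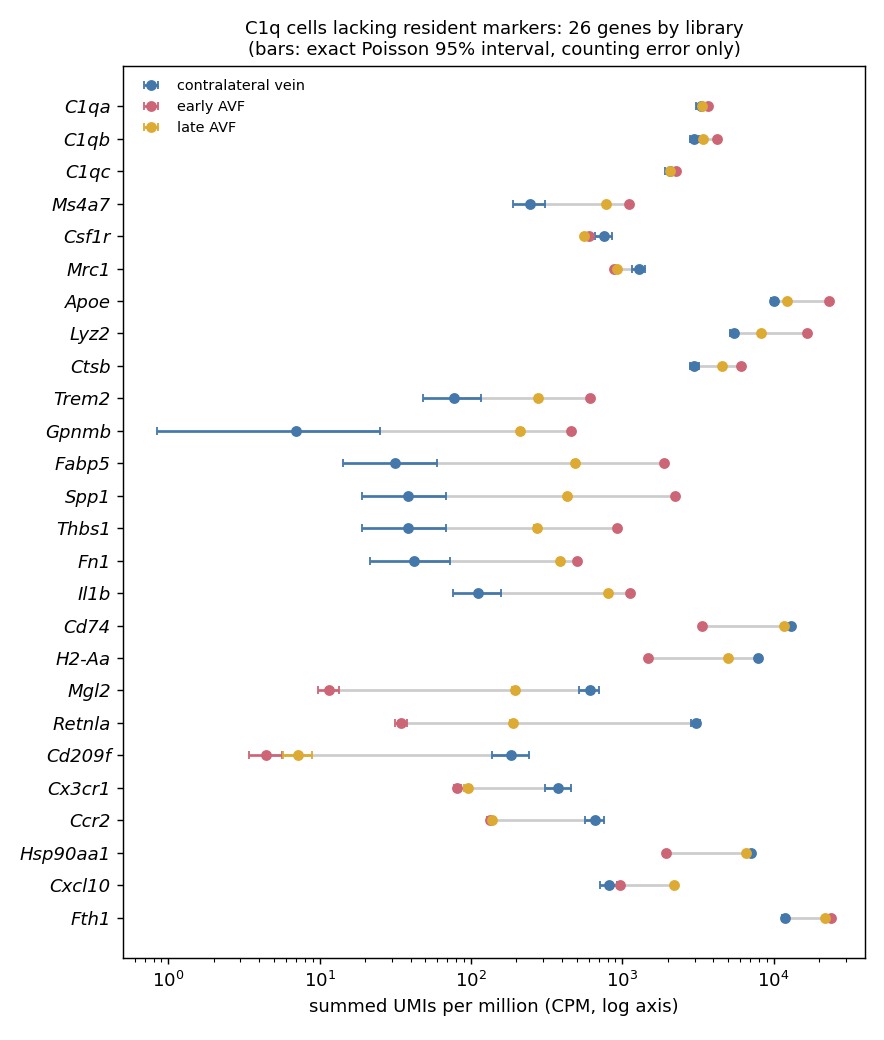
Summed UMIs as CPM (log x axis) of 26 genes (y axis) in members from contralateral veins, early AVFs, and late AVFs, with exact Poisson 95% intervals for counting error and a grey line between the lowest and highest library. *Trem2*, *Fabp5*, and *Spp1* lay lowest in contralateral veins and highest in early AVFs, while *Retnla*, *Mgl2*, and *H2-Aa* lay highest in contralateral veins and lowest in early AVFs.

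Matrix and profibrotic genes were mostly higher in fistula members. Of 12 listed genes, 7 of 10 compared were at least 2-fold higher and 0 lower in early AVFs than in the contralateral group (median ratio 12.7) and 7 of 10 in late AVFs (median 5.74). Over all compared genes, 15.2% were higher and 14.4% lower in early AVFs, and 11.4% and 11.1% in late AVFs. A listed gene entered by its level in the higher library alone. Several had few contralateral UMIs, so both medians depend in part on that filter. Between late and early AVFs, 3 of 12 were higher (*Pdgfa*, *Pdgfb*, and *Mmp12*) and 4 lower (*Thbs1*, *Spp1*, *Arg1*, and *Vegfa*), and the median was 0.799, against 3.86% higher and 1.64% lower of all compared genes. *Spp1* was at 38.4, 2224, and 428.3 CPM in contralateral veins, early AVFs, and late AVFs, and the 11 UMIs of contralateral veins came from 3 cells, with 63.6% from 1 of them. In early AVFs 840 members (89.0%) had a UMI of *Spp1*, and after thinning 61.2% of early members had one, against 25.5% of early T cells. *Thbs1*, which encodes thrombospondin 1, an activator of TGF-β, was at 38.4, 918, and 272 CPM, with 63.6% of its contralateral UMIs from 1 cell, and *Fn1*, which encodes fibronectin, at 41.9, 501, and 387 CPM. *Arg1*, which encodes arginase 1, was at 0, 141, and 23.7 CPM, and 72.4% of its late UMIs came from 1 cell. *Mmp14* and *Mmp19*, which encode matrix-degrading proteases, had 3 UMIs each in contralateral veins, and the early ratios of 17.99 and 13.6 had intervals of 6.15 to 87.3 and 4.64 to 65.9. *Timp2*, an inhibitor of such proteases, was at 363, 536, and 443 CPM, which is under the 2-fold limit in every comparison. Summed over the 12 listed genes, members had 977, 5266, and 2659 CPM. C1q cells with resident markers had 1140, 2872, and 1396 CPM, the same order of libraries, so the higher level in fistulas was not particular to members.

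MHC class II genes, which present antigen to CD4+ T cells, were lowest in early AVFs. All 6 compared genes were at least 2-fold lower in early members than in contralateral ones (median ratio 0.240), 0 differed by 2-fold between late AVFs and contralateral veins (median 0.727), and all 6 were at least 2-fold higher in late than in early AVFs (median 3.23). The shares over all compared genes were 14.4% lower in early AVFs and 3.86% higher in late than in early AVFs. *H2-Aa*, a class II chain, was at 7941 CPM in contralateral veins, 1468 in early AVFs, and 4968 in late AVFs. *Cd74*, the invariant chain, was at 12992, 3362, and 11688 CPM, against 62.8, 720, and 728 CPM in T cells. *Ciita*, the master activator of these genes, was at 97.7, 10.9, and 32.5 CPM and did not reach the filter. The difference between late and early AVFs depended on the resident rule: among members without any resident-marker UMI, 0 of 6 genes were 2-fold higher in late AVFs and the median ratio was 1.74. The low early level was not particular to members. The class II list summed to 35164, 7662, and 25630 CPM in members. It summed to 15845, 1817, and 20962 CPM in C1q cells with resident markers.

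Single members differed widely in class II. The share of a cell's UMIs from *H2-Aa*, *H2-Ab1*, *H2-Eb1*, and *Cd74* had a median of 2.80% in contralateral veins (quartiles 1.22 and 4.36%), 0.0596% in early AVFs (0.0102 and 1.12%), and 2.47% in late AVFs (0.521 and 4.33%). Early AVFs thus held many members with almost no class II UMIs and fewer members with shares like those of the other libraries. After thinning to 2000 UMIs, *H2-Aa* was detected in 100%, 41.7%, and 84.8% of members and in 5.88%, 10.2%, and 16.3% of T cells. Without thinning it was detected in 89.8%, 58.9%, and 95.5% of members.

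**Figure D3:**
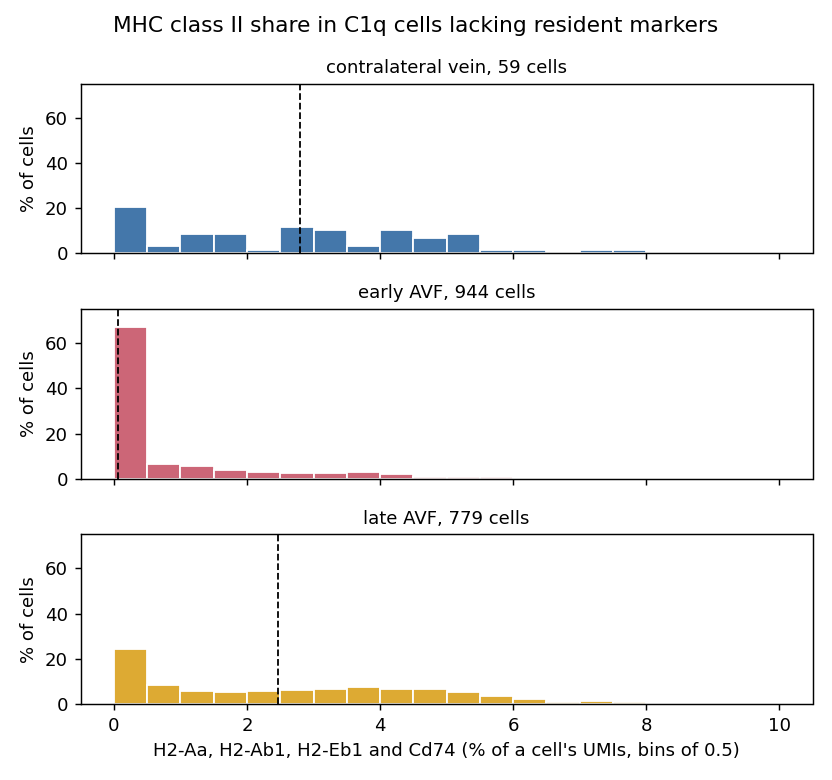
Distribution of the MHC class II share of single members (x axis, % of a cell's UMIs in bins of 0.5) as % of members (y axis) in each library, with the median as a dashed line. The median was 2.80% for the 59 cells of contralateral veins, 0.0596% for the 944 cells of early AVFs, and 2.47% for the 779 cells of late AVFs.

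Genes of perivascular macrophages that were not part of the rule were mixed. Of 13 listed genes, 11 were compared, 5 were at least 2-fold lower and 1 (*Pf4*) higher in early AVFs than in contralateral veins (median ratio 0.502), and 6 were lower in late AVFs (median 0.468). Among all compared genes, 14.4% were lower and 15.2% higher in early AVFs, and 11.1% lower in late AVFs. *Cd209f*, a C-type lectin, was at 185, 4.45, and 7.23 CPM, and the chemokine gene *Ccl24* at 119, 16.8, and 12.1 CPM. Each was found in 15 of the 59 contralateral members. Both were also highest in contralateral veins in C1q cells with resident markers, *Cd209f* at 876, 419, and 127 CPM and *Ccl24* at 417, 169, and 115 CPM. *Mrc1*, which encodes the mannose receptor CD206, differed by less, at 1281, 886, and 917 CPM. *Pf4* stood apart at 1344, 3360, and 1351 CPM, and *Selenop*, a selenium carrier, at 2196, 2833, and 1994 CPM. Of genes for the uptake of dying cells, *Stab1* was at 569, 396, and 233 CPM, while *Tgm2*, a transglutaminase, was at 14.0, 158, and 161 CPM with 4 UMIs in contralateral veins. That list had 3 of 9 genes higher and 2 lower in early AVFs (median 0.697), 1 of 8 higher and 3 lower in late AVFs (median 0.736), and 1 of 9 higher and 0 lower in late than in early AVFs (*Axl*, median 1.02). These small counts were not tested against the shares over all compared genes.

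*Retnla* and *Mgl2*, genes induced by interleukin 4 in macrophages, were, with *Cd209g* and *Cd209f*, the genes furthest below contralateral veins in early members. *Mgl2* was at 607, 11.5, and 196 CPM, was detected in 62 of 944 early and 341 of 779 late members, and was 17.1 times as high in late as in early AVFs (14.5 to 20.1). *Retnla* was at 3054, 34.5, and 189 CPM, but its UMIs came from few cells: 15 in contralateral veins with 48.3% of UMIs from 1 of them, 6 in early AVFs with 86.9% from 1, and 86 in late AVFs with 45.4% from 1. With a C1q threshold of 1%, which left 13 members in contralateral veins, the ratios of *Retnla* turned to 1.92 for early and 3.33 for late AVFs over contralateral veins. *Cd209g* was at 126, 1.41, and 4.47 CPM. The monocyte chemokine receptor genes *Cx3cr1* and *Ccr2* were also highest in contralateral veins, at 377, 81.4, and 94.98 CPM and at 656, 134, and 138 CPM.

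Genes seen in monocytes and recently recruited cells did not share 1 direction. *S100a4* was at 83.8, 756, and 355 CPM and *S100a6* at 237, 830, and 519 CPM in contralateral veins, early AVFs, and late AVFs. With *Fn1*, these were the 3 of 4 compared monocyte genes that were higher in both early and late AVFs (medians 6.26 and 3.21), and *Ccr2* was lower in both. Over all compared genes, 15.2% and 11.4% were higher and 14.4% and 11.1% lower in early and late AVFs. *Chil3* was at 0, 35.0, and 2.24 CPM, a ratio of 3.34 for early AVFs with a floor of 3 UMIs for contralateral veins. *Lyz2*, which encodes lysozyme, was at 5445, 16555, and 8261 CPM and *Ctss*, which encodes cathepsin S, at 977, 2477, and 1806 CPM. They were among the 4 of 14 core macrophage genes that were higher in early AVFs, with *Cd68* and *Ms4a7* (list median 1.40). In late AVFs only *Ms4a7* was higher (median 1.12), and *Cx3cr1* was lower in both. The core macrophage genes summed to 14092, 29301, and 18278 CPM in members. In C1q cells with resident markers they summed to 13765, 28186, and 16506 CPM, the same order of libraries.

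Cytokine genes were mixed. Of 15 compared genes, 4 were higher and 1 lower in early AVFs than in the contralateral group (median ratio 1.08), 6 higher and 1 lower in late AVFs (median 1.43), and 1 (*Cxcl10*) higher and 0 lower in late than in early AVFs (median 1.21). In the same comparisons, 15.2%, 11.4%, and 3.86% of all compared genes were higher and 14.4%, 11.1%, and 1.64% lower. *Il1b* was at 112, 1130, and 807 CPM, a ratio of 10.1 for early (7.16 to 14.8) and 7.23 for late AVFs (5.12 to 10.6) over contralateral veins. Its 32 contralateral UMIs came from 9 cells, with 40.6% from 1 of them, a spread that these intervals do not cover. *Il1rn*, which encodes the antagonist of the same receptor, was at 66.3, 427, and 423 CPM. *Cxcl2* and *Ccl4*, the most abundant chemokine UMIs of the list, were at 9282, 10022, and 15284 CPM and at 8140, 6254, and 11253 CPM. *Ccl12* was the gene lower in both, at 949, 389, and 390 CPM.

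Interferon-stimulated, iron, and heat shock genes differed between late and early AVFs in part. Over all compared genes, 3.86% were higher in late than in early AVFs. Against contralateral veins, 15.2% were higher and 14.4% lower in early AVFs, and 11.4% higher and 11.1% lower in late AVFs. Of interferon-stimulated genes, 4 of 8 were at least 2-fold higher in late than in early AVFs (*Ifit1*, *Oasl1*, *Rsad2*, and *Cxcl10*, median 2.00). *Ifit1* was at 80.3, 330, and 833 CPM and *Rsad2* at 524, 416, and 965 CPM, with 64.7% of the contralateral *Rsad2* UMIs from 1 cell. Of iron and oxidative stress genes, 7 of 9 were higher in late AVFs than in contralateral veins (median 2.44) and 3 of 7 in early AVFs (median 1.37). The ferritin chains *Fth1* and *Ftl1* were at 11812, 23781, and 21918 CPM and at 5491, 11423, and 11400 CPM, and *Srxn1*, an NRF2 target, at 66.3, 78.1, and 270 CPM, with 63.2% of its contralateral UMIs from 1 cell. Of 6 heat shock genes, 4 were lower in early members than in contralateral ones (median 0.361), 0 differed by 2-fold between late AVFs and contralateral veins (median 0.991), and 5 were higher in late than in early AVFs (median 2.69). *Hsp90aa1* was at 7034, 1944, and 6583 CPM and *Hspa1b* at 9561, 3689, and 8930 CPM. With a C1q threshold of 1% the early ratio of *Hspa1b* turned to 1.44. The heat shock list summed to 29757, 14133, and 32897 CPM in members. C1q cells with resident markers, at 28132, 16337, and 55208 CPM, were lowest in early AVFs as well. The interferon-stimulated list summed to 3012, 2803, and 6014 CPM in members. It summed to 1832, 2495, and 6208 CPM in cells with resident markers and was highest in late AVFs in both groups. The iron and oxidative stress list summed to 21527, 38791, and 40930 CPM in members. In cells with resident markers it summed to 20523, 29971, and 30954 CPM, the same order of libraries.

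Transcription factor genes and cell division genes were compared as well. *Cebpb* was at 1948, 2214, and 1651 CPM, within 2-fold. *Maf* was at 981, 470, and 335 CPM, lower in both, and *Id3* at 66.3, 329, and 159 CPM, higher in both. *Hif1a* was the other gene of that list to be higher in early AVFs. The immediate early gene *Egr1* was at 1532, 634, and 1053 CPM, an early ratio that turned to 1.42 with a C1q threshold of 1%, and *Jun* at 3236, 1651, and 3353 CPM. Only *Hmgb2* of the 10 cell division genes passed the filter, at 136, 183, and 245 CPM, and *Mki67* was at 14.0, 56.1, and 77.9 CPM with 4 UMIs in contralateral veins.

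Beyond these lists, the largest ratios of early over contralateral members also included *Saa3* (69.4, 12.4 to 2741, with 1 UMI in contralateral veins), *Emp1* (44.9, 12.4 to 371), *Acp5* (36.4, 6.52 to 1438), *Slpi* (20.8, 5.75 to 172, but 0.956 with a C1q threshold of 1%), and *Cxcl3*. *Cxcl3* was at 0 in contralateral veins and 23.7-fold higher with a floor of 3 UMIs, with an interval from 19.3 without an upper bound. The largest ratios of late over contralateral members were those of *Emp1* (45.6), *Acp5* (32.9), *Gpnmb* (30.3), *Cxcl3* (29.996 with the same floor, lower bound 24.4), *Mmp19* (23.2), *Tnfaip2* (18.3), *Anxa1* (17.4), *Fabp5* (15.5), *Ccl5* (13.6), and *Fam129b* (13.3). Lower in both early and late AVFs were *St3gal6* (19.96- and 8.15-fold) and *Btg2* (7.21- and 7.57-fold), an anti-proliferative gene. *Hpgd* (10.2-fold), *Slco2b1* (9.20-fold), *Ccnd2* (8.79-fold), and *Clec4b1* (8.27-fold) were among the genes furthest below contralateral veins in early AVFs, and *Mmp9* (25.5-fold), *Lpar6* (7.25-fold), and *Mir99ahg* (7.17-fold) in late AVFs. The genes with the largest ratios of late over early AVFs were *Mgl2*, *Retnla*, *Igkc* (5.43), *Oasl1* (4.42), *Ccl5* (4.37), *Bag3* (4.31), *Dcn* (3.96), *Hspd1* (3.89), *Hspb1* (3.84), and *Hsph1* (3.61). In the other direction, late members were lower than early ones in *Saa3* (7.67-fold), *Slpi* (3.53-fold), *Apoc2* (3.31-fold), *Cd38* (2.69-fold), and *Nr4a2* (2.68-fold). *Igkc* and *Dcn* are genes of plasma cells and fibroblasts. Late T cells had 4255 CPM of *Igkc* against 131 CPM in late members, and late fibroblasts had 14089 CPM of *Dcn* against 183 CPM in late members.

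Next, members were set against C1q cells with resident markers of the same library. The resident genes separated the groups by rule, so that the contrast is a description. Of 909 genes with at least 100 CPM in the higher group of each library, 52 were at least 1.5-fold higher in members in all 3 libraries. The leading genes were *Il1b*, *Cd72*, *Ptgs2*, *Cd14*, *Basp1*, *Bcl2a1b*, *Nlrp3*, *Sowahc*, *Tnfsf9*, and *Slc15a3*. *Il1b* was 27.9, 8.58, and 34.0 times as high in contralateral, early, and late members, and *Cd14*, a receptor for bacterial lipopolysaccharide, 3.06, 3.05, and 3.62 times. The contralateral ratio of *Il1b* rests on 32 UMIs from 9 members, with 40.6% from 1 cell, against 4.00 CPM in cells with resident markers. *Ptgs2*, which encodes cyclooxygenase 2, was at 624.8, 604, and 389 CPM in members and 40.9, 108, and 101 CPM in cells with resident markers. Several of these genes act in innate sensing, among them *Nlrp3*, which encodes an inflammasome sensor.

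In the other direction, 89 of 999 genes were higher in cells with resident markers in all 3 libraries, led by *Ednrb*, *Cd209f*, *Ltc4s*, *Ccl8*, *Fcgrt*, *Ccl24*, *F13a1*, *C4b*, *Sulf2*, and *Fxyd2*. *Ednrb*, which encodes an endothelin receptor, was 9.46, 6.09, and 6.81 times as high in them, and *Ltc4s*, which makes leukotriene C4, 4.36, 4.42, and 5.23 times. The monocyte-attracting chemokine gene *Ccl8* was at 2498, 8303, and 6335 CPM in cells with resident markers and 614, 1557, and 1604 CPM in members. *Ccl8* was therefore higher in fistulas in both groups of cells and higher in cells with resident markers in each library.

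Bulk libraries gave an independent measure of the same genes across single vessels, although a level in bulk cannot tell apart more cells of a type and more RNA per cell. A gene was called at a Benjamini–Hochberg adjusted *p* under 0.01 and a log2 fold change of at least 1 in either direction in edgeR's quasi-likelihood test of all 25 libraries, and these *p* values measure the spread between vessels. Summed counts were 20254173 to 67457501 per library. Of 12673 genes tested, 6.17% were called higher and 6.45% lower in early AVFs than in the contralateral group, 2.74% and 3.31% in mid AVFs, and 2.49% and 2.85% in late AVFs, and 0.726% were higher and 2.28% lower in late than in early AVFs. Libraries of contralateral veins had 363 to 2848 of the tested genes at 0, against 10 to 595 in fistulas, and 4 contralateral veins had over 1000.

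The C1q genes rose in early AVFs. *C1qa* was at 65.1 to 265 CPM in 7 contralateral veins (median 149.9) and at 225 to 703 CPM in 8 early AVFs (median 432). In mid AVFs it was at 221, 240.5, 251, 264, and 323 CPM, and in late AVFs at 178, 195, 287, 289, and 341 CPM. The early and contralateral ranges overlapped through 1 early AVF. The early log2 fold change was 1.67 ± 0.28 (SE; edgeR adjusted *p* = 8.84e-05), against 0.83 in mid AVFs (adjusted *p* = 0.0740) and 0.82 in late AVFs (adjusted *p* = 0.0801), which did not pass.

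*C1qb* was at 191 to 954 CPM in contralateral veins (median 534) and at 1025 to 4177 CPM in early AVFs (median 1800), without overlap. In mid AVFs it was at 832, 929, 978, 996, and 1173 CPM and in late AVFs at 654, 682, 985, 1011, and 1182 CPM, ranges that overlapped both other groups. The early log2 fold change was 1.91 ± 0.30 (edgeR adjusted *p* = 3.46e-05), and late against early AVFs it was −1.24 ± 0.33 (adjusted *p* = 0.0196), not called here but called under DESeq2 and the likelihood ratio test. *C1qc* was at 28.9 to 616 CPM in contralateral veins (median 327) and 669.7 to 2535 CPM in early AVFs (median 1077), again without overlap. Mid AVFs had 438, 498, 551, 614, and 660.3 CPM and late AVFs 462, 471, 636, 699, and 720.2 CPM. Its early log2 fold change was 2.02 ± 0.40 (edgeR adjusted *p* = 0.000548).

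*Ms4a7* was at 0.187 to 109 CPM in contralateral veins (median 45.8) and at 183 to 1233 CPM in early AVFs (median 455). In mid AVFs it was at 127, 156, 191, 213, and 255 CPM and in late AVFs at 132, 144, 162, 182, and 205 CPM. All 18 fistulas lay above all 7 contralateral veins. The log2 fold change was 3.40 ± 0.61 in early AVFs (edgeR adjusted *p* = 0.000169), 1.86 in mid AVFs (adjusted *p* = 0.0469), and 1.67 in late AVFs (adjusted *p* = 0.0781), so that only the early change was called. The calls of *C1qa*, *C1qb*, *C1qc*, and *Ms4a7* in early AVFs held under all 32 alternative analyses.

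**Figure D4:**
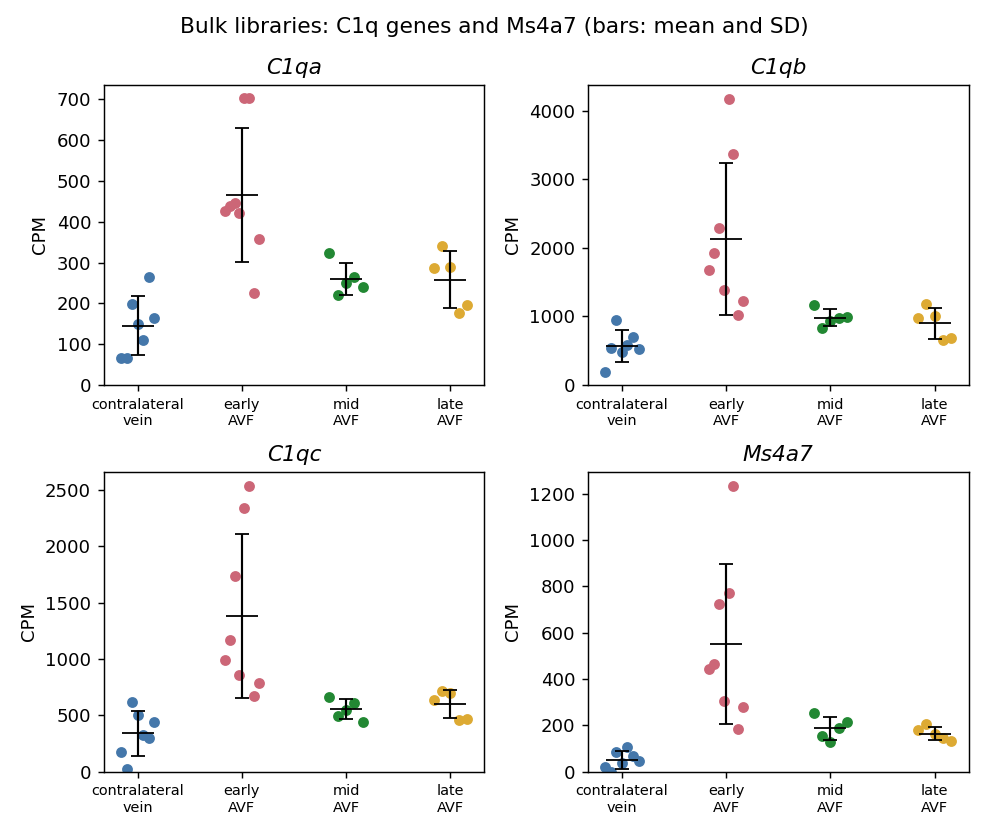
CPM (y axis) of the C1q genes and *Ms4a7* in each bulk library by group (x axis), with mean and SD. Early AVFs were highest in all 4 genes, and for *C1qb*, *C1qc*, and *Ms4a7* all 8 early AVFs lay above all 7 contralateral veins.

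Of the 30 defining genes of the members, 15 were called higher and 1 lower (*Trf*, transferrin) in early AVFs, against 6.17% and 6.45% of all tested genes, with a median log2 fold change of 2.01 against −0.01. In mid and late AVFs 2 were higher (*C3ar1* and *Lgmn*) and *Trf* was lower, with medians of 1.10 and 0.89 against −0.10 and −0.09. Of all tested genes, 2.74% were higher and 3.31% lower in mid AVFs, and 2.49% and 2.85% in late AVFs. The count was 3 lower in late than in early AVFs (*Aif1*, *Lgmn*, and *Clec4a3*), against 2.28% of all tested genes, with a median of −0.92 against 0.01. Without the 4 contralateral veins with over 1000 tested genes at 0, the higher counts became 20 (early), 12 (mid), and 9 (late), and the lower count in late against early AVFs was 10. With 1 library left out, 2 to 6 were higher in mid and in late AVFs and 0 to 6 lower in late than in early AVFs, and 0 were lower without early AVF 5, early AVF 6, or any late AVF. *C3ar1*, the receptor of the complement fragment C3a, had log2 fold changes of 4.60, 3.29, and 2.96 at the 3 times, all called. *Apoe* rose by 1.36 ± 0.27 on the log2 scale in early AVFs (edgeR adjusted *p* = 0.000521) and *Adgre1* by 1.90 ± 0.28 (adjusted *p* = 1.18e-05). *Fcrls*, another defining gene, had a log2 fold change of 0.06 in early AVFs (edgeR adjusted *p* = 0.918). The 30 defining genes include *C1qa*, *C1qb*, and *C1qc*, which chose the cells, and were ranked against all other kept barcodes. Some were higher still in C1q cells with resident markers, such as *Mrc1* and *C1qa* (4035, 4919, and 4397 CPM in those cells). The bulk counts of this list therefore do not speak for members apart from other C1q cells.

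Other macrophage genes also changed in bulk. Over all tested genes, 6.17% were called higher and 6.45% lower in early AVFs, 2.74% and 3.31% in mid AVFs, and 2.49% and 2.85% in late AVFs. In late AVFs 2.28% were lower than in early AVFs. Of 15 core macrophage genes, 12 were called higher and 0 lower in early AVFs, 4 in mid AVFs (*Lyz2*, *Tyrobp*, *Ctss*, and *Cx3cr1*), and 3 in late AVFs (*Lyz2*, *Ctss*, and *Cx3cr1*), and 5 were lower in late than in early AVFs. *Cx3cr1* went the other way in members, where it was lower in early and late AVFs than in contralateral veins. Of 19 lipid and lysosome genes, 9 were higher and 0 lower in early AVFs, 4 higher in mid AVFs, and 3 higher in late AVFs (*Trem2*, *Spp1*, and *Lgals3*), with *Fabp4* lower in mid and late AVFs. Markers of other cells changed in the same vessels. All 5 neutrophil genes were called higher in early AVFs (median log2 fold change 5.86), as were 3 of 4 monocyte markers (4.47), while all 4 smooth muscle genes (−3.42) and 3 of 5 endothelial genes (−1.80) were lower. Their part in the bulk changes of the members' genes was not tested.

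The genes that separated members from C1q cells with resident markers differed in bulk. Of the 30 leading genes higher in members, 12 were called higher and 0 lower in early AVFs (median log2 fold change 2.55), 6 in mid AVFs (median 1.68), and 5 in late AVFs (*Slc15a3*, *Lgals3*, *Cxcl16*, *Mpeg1*, and *Cd300c2*, median 1.51). Over all tested genes, 6.17%, 2.74%, and 2.49% were higher in early, mid, and late AVFs, and 6.45%, 3.31%, and 2.85% lower. The medians over all tested genes were −0.01, −0.10, and −0.09. Bulk counts do not assign these changes to members, and the part of other cells was not tested. *Il1b* was at 0 to 43.4 CPM in contralateral veins (median 0.313) and 40.1 to 213 CPM in early AVFs (median 114), overlapping through 1 contralateral vein, with a log2 fold change of 4.05 ± 1.07 (edgeR adjusted *p* = 0.00651) that was called in 25 of 32 alternative analyses. The call was lost, with log2 fold changes of 3.75 to 4.03, without contralateral vein 27, 31, 35, or 632 or early AVF 4, 5, or 6. Without the 4 contralateral veins with over 1000 tested genes at 0, the log2 fold change of *Il1b* was 9.68. *Cd14* rose by 3.26 ± 0.66 on the log2 scale (adjusted *p* = 0.000712). Of the 30 leading genes higher in cells with resident markers, 1 was called higher (*Wfdc17*) and 5 lower in early AVFs (median −0.22). In mid AVFs 1 was higher and 4 were lower (median −0.48), and in late AVFs 0 were higher and 2 lower (median −0.29). Between late and early AVFs, 5 were higher and 1 lower in late AVFs (median 0.12), against 0.726% and 2.28% of all tested genes. Of the leading genes named above, *Ltc4s* had an early log2 fold change of 2.10 (edgeR adjusted *p* = 0.0111) and *Ednrb* of −0.54 (adjusted *p* = 0.172), neither called. *Cd209f* was at 104 to 516 CPM in contralateral veins (median 240.1) and 4.77 to 28.0 CPM in early AVFs (median 15.2), without overlap, a log2 fold change of −4.47 ± 0.43 (edgeR adjusted *p* = 2.86e-08).

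Genes that varied between members of different libraries were looked up in bulk too. *Trem2* was at 0 to 6.52 CPM in contralateral veins (median 0.548) and at 79.2 to 659 CPM in early AVFs (median 99.4). Mid AVFs had 41.9, 62.8, 63.2, 69.3, and 79.1 CPM and late AVFs 28.1, 31.4, 39.1, 48.5, and 58.1 CPM. Every fistula was above every contralateral vein, and every early AVF above every late AVF. The log2 fold change was 7.18 ± 0.89 in early AVFs (edgeR adjusted *p* = 1.22e-06), 5.47 in mid AVFs (adjusted *p* = 7.49e-05), and 4.85 in late AVFs (adjusted *p* = 0.000286). *Spp1* changed by 7.72, 5.26, and 4.70 on the log2 scale, and *Emp1* by 2.00, 2.15, and 1.92, all called. *Fabp5* was called higher in early AVFs (1.92 ± 0.38, edgeR adjusted *p* = 0.000526) and lower in late than in early AVFs (−2.09 ± 0.44, adjusted *p* = 0.00441), with the second call lost when any 1 of the 5 late AVFs was left out. *Gpnmb*, by contrast, had a log2 fold change of −0.17 in early AVFs (adjusted *p* = 0.745), and in the single-cell library of contralateral veins it was at 356 CPM in fibroblasts against 6.98 CPM in members.

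*Retnla* fell in early AVFs. It was at 1234 to 4933 CPM in contralateral veins (median 2197) and at 6.73 to 76.0 CPM in early AVFs (median 36.8). In mid AVFs it was at 50.6, 123, 124, 141, and 208 CPM and in late AVFs at 192, 338, 340.3, 504, and 598 CPM. All fistulas were below all contralateral veins, and all late AVFs above all early AVFs. The log2 fold change was −6.13 ± 0.51 in early AVFs (edgeR adjusted *p* = 2.32e-09) and −2.69 ± 0.53 in late AVFs (adjusted *p* = 0.00120; −1.98 and not called without the 4 contralateral veins named above), and late against early AVFs it was 3.44 ± 0.47 (adjusted *p* = 0.000252). *Mgl2* was at 6.50 to 296 CPM in contralateral veins (median 144) and 0.0814 to 27.5 CPM in early AVFs (median 8.70), with overlap, and at 91.7, 94.3, 94.8, 123, and 138 CPM in late AVFs, above all early AVFs. It fell by 3.80 ± 0.68 on the log2 scale in early AVFs (edgeR adjusted *p* = 0.000156) and was higher by 3.39 ± 0.69 in late than in early AVFs (adjusted *p* = 0.00403), a call lost without early AVF 5 or late AVF 16, 17, 19, or 24 (3.28 to 3.51). *Retnla* and *Mgl2* are made by other cells as well, and bulk levels do not assign them to the members.

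None of the 7 class II genes was called in these comparisons by edgeR. Their median log2 fold changes were 0.38 (early), 1.05 (mid), and 1.07 (late), and 0.73 for late against early AVFs. *Cd74* was at 312 to 1730 CPM in contralateral veins (median 805) and at 428.002 to 3491 CPM in early AVFs (median 937). In mid AVFs it was at 1955, 2110, 2352, 2660, and 3221 CPM and in late AVFs at 1948, 2060, 2911, 2976, and 3585 CPM. Mid and late AVFs lay above all contralateral veins, while early AVFs spanned both ranges. The log2 fold change was 0.63 in early AVFs (edgeR adjusted *p* = 0.3004), 1.48 in mid AVFs (adjusted *p* = 0.0348), and 1.61 in late AVFs (adjusted *p* = 0.0229), and the late change passed under DESeq2 and the likelihood ratio test alone among 32 alternative analyses. B cells, dendritic cells, and other macrophages also carry class II genes. Of the 6 heat shock genes, *Hspa1a* and *Hspa1b* were lower in early and mid AVFs and *Hspa1a* in late AVFs, and 0 were higher. Over all tested genes, 6.45%, 3.31%, and 2.85% were lower in early, mid, and late AVFs.

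**Figure D5:**
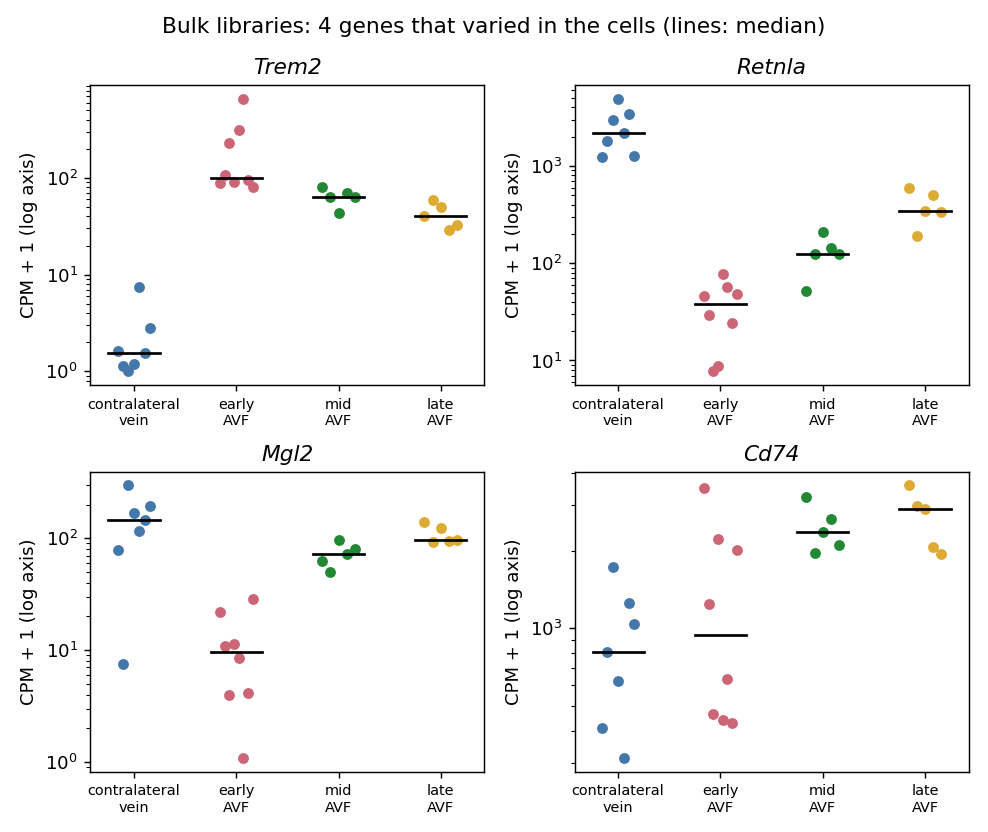
CPM plus 1 (log y axis) of *Trem2*, *Retnla*, *Mgl2*, and *Cd74* in each bulk library by group (x axis), with the group median as a line. *Trem2* was above all contralateral veins in every fistula, *Retnla* below them in every fistula, *Mgl2* lowest in early AVFs, and *Cd74* highest in mid and late AVFs.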

How the data were processed

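For single-cell RNA sequencing, the authors deposited matrices of UMI counts, limited to barcodes called as cells by Cell Ranger 6.0.2 (file headers; mm10). For bulk sequencing, the authors deposited raw read counts for 56980 genes; the submitters' processing notes name STAR, without a version or role. Groups came from the deposited labels. Members and gene lists were chosen with earlier results of these data known, and the lists were not tested as sets. Barcodes were selected in Python 3.11.15 (scipy 1.17.1, scanpy 1.11.5 for Scrublet), UMI counts of members were summed per library into CPM with exact Poisson intervals, and ratios had exact conditional intervals. Named genes were the C1q genes and *Ms4a7*; in each of 15 pathway lists the 2 with the highest CPM and the 2 with the largest range; the 10 with the largest ratio each way in each comparison, leaving out mitochondrial, ribosomal protein, haemoglobin, Gm, Rik and sex-linked genes; and the first 10 against other barcodes and against cells with resident markers. Other genes were named after their values were seen, and some genes of the rule are not reported here. Fibroblasts and T cells used for comparison were barcodes past the collagen threshold and barcodes with at least 2 T cell UMIs and under 0.5% C1q.

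Bulk genes whose counts, scaled by DESeq2 size factors, averaged 100 or more (12673) were fitted with edgeR 4.0.16 in R 4.3.3 (TMM, quasi-likelihood, 4 groups, 25 libraries; SE taken as the log2 fold change divided by the square root of F). Alternatives were DESeq2 1.42.0, DESeq2 size factors, the likelihood ratio test, filterByExpr, no filter, a sex term, each library left out, and, chosen after seeing the data, the 4 libraries with over 1000 tested genes at 0 left out. For cells the thresholds, thinning and doublets were varied, and, also chosen after seeing the data, equal weight per cell and the deepest 5% of barcodes left out. The computations were tested on simulated data. Promoters came from RefSeq (GRCm38.p6; 2 of the 3 C1q genes matched) and gene positions from GENCODE. The single-cell depth is given per member, and bulk libraries held 20254173 to 67457501 counts.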

Additional observations from a re-analysis of the deposited data

Results flagged for a closer look

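In 88 sets of values, each of 1 gene in 1 group of bulk libraries, a value far from the others was looked for (Dixon's criterion). There were 8 such values, some of them from the same library. Chance gives about 1 in 20 for normally distributed values, while CPM were used here without transformation. Contralateral vein 31 had *Apoe* at 5717 CPM (the others 1690 to 3393), *Cd72* at 31.2 CPM (0 to 3.48), and *Fabp5* at 202 CPM (26.8 to 96.4). Contralateral vein 34 had *Il1b* at 43.4 CPM (0 to 7.88), contralateral vein 35 *Trem2* at 6.52 CPM (0 to 1.79), and contralateral vein 633 *Gpnmb* at 528 CPM (132 to 293). Early AVF 6 had *Trem2* at 659 CPM (79.2 to 312), and early AVF 5 had *Ltc4s* at 104 CPM (3.82 to 49.2).

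Male and female mice were compared in their response for the listed genes. The early change of *Fosb* was lower in males than in females by a log2 fold change of −10.2 (edgeR interaction, adjusted *p* = 0.00983), among 57 of 12673 genes with an adjusted *p* under 0.05 for early AVFs. Contralateral veins of males numbered 2, and *Fosb* was at 0 to 56.1 CPM in contralateral veins.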

How the results depend on the processing

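The share of kept barcodes in contralateral veins, early AVFs, and late AVFs was 2.31%, 25.6%, and 19.96% with at least 0.25% C1q, 0.206%, 8.86%, and 3.20% with at least 1%, 0.680%, 17.0%, and 11.4% with under 0.05% resident genes, 2.17%, 21.8%, and 14.9% with under 0.2%, and 0.522%, 7.32%, and 6.43% without resident UMIs. It was 1.22% in contralateral veins after thinning and 22.0% in early AVFs with 500 to 6000 genes. The order of the libraries was the same in each of these settings. With 1% C1q, 63 genes were 2-fold lower in early AVFs and 342 higher and 52 lower in late AVFs than in contralateral veins, and without resident UMIs 378 were higher in late AVFs. Of 1794 alternative values of 138 ratios past 2-fold, 1697 stayed past it and 13 turned: with 1% C1q (13 contralateral cells) the early ratio was 1.47 for *Bag3*, 1.16 for *Cd163*, 1.42 for *Egr1*, 1.44 for *Hspa1b*, 1.43 for *Hspd1*, 1.69 for *Hsph1*, 1.46 for *Mmp9*, 1.92 for *Retnla*, and 0.956 for *Slpi*, and the late ratio 2.97 for *Cd38* and 3.33 for *Retnla*; without resident UMIs it was 1.27 for *Cd38* (late) and 6.04 for *Oasl1* (early). The cause was not tested.

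In bulk, defining genes called higher in late AVFs numbered 4 under DESeq2, the likelihood ratio test, and filterByExpr, 9 without the sparse veins, and 2 to 6 with a library left out, with over 3 without contralateral vein 31 (6), 34 (5), or 632 (4). Those higher in mid AVFs numbered 6, 6, 6, 12, and 2 to 6, with over 3 without contralateral vein 28, 31, 34, or 632, early AVF 3, 6, or 7, or late AVF 24. Those lower in late than in early AVFs numbered 6 under DESeq2, 5 under the likelihood ratio test, 0 under filterByExpr and without a filter, 10 without the sparse veins, and 0 to 6 with a library left out, with 0 without early AVF 5 or 6 or any late AVF. The early log2 fold change of *Fcrls* was −0.030 under filterByExpr and −0.14 to 0.33 with a library left out, that of *Gpnmb* −0.35 to 0.12 (0.12 without contralateral vein 633), and that of *H2-Ab1* −0.18 to 0.26. Without the sparse veins *Gpnmb* was at −0.45, *H2-Ab1* at 0.86, and *Il1b* at 9.68. No paired analysis was possible because the groups share no replicate numbers. Precision was limited by 59 contralateral cells and by the spread among contralateral veins.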
